A study of Mus musculus with 8 samples.

Results

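The nuclear genes for the proteins of the mitochondrial ribosome were followed in the submandibular gland of male mice. Members were the protein-coding genes whose mouse symbol is Mrpl or Mrps followed by a number. That gave 76 of the 54838 genes counted, 28 assigned by symbol to the small subunit (Mrps) and 48 to the large subunit (Mrpl). Mrpl39 and Mrps6 were set apart because Dp16 mice carry 3 copies of each. Of the 8 libraries, 4 were labelled wild type (WT), strain C57BL/6J. The other 4, named Dp16, were labelled transgenic; they are of the line B6.129S7-Dp(16Lipi-Zbtb21)1Yey/J, one with a duplication of the chromosome 16 segment from Lipi to Zbtb21 that is used as a model of Down syndrome. The labels give C57BL/6J as the strain of this group too, and give no age. The duplication is in the germline, so the extra copies are not limited to the gland or to one of its cell types. The labels number the replicates 1 to 4 and do not say that each is a separate animal, so p-values measure the spread between these samples only.

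The mitochondrial ribosome translates the few proteins encoded in mitochondrial DNA, all of them core subunits of the respiratory chain and ATP synthase. Its RNAs are mitochondrial transcripts, whereas every one of its proteins is encoded in the nucleus, made in the cytosol and imported. The small subunit binds the messenger RNA and reads its codons, and the large subunit holds the peptidyl transferase centre and the exit tunnel. Many of the proteins descend from bacterial ribosomal proteins and keep the bacterial number, and the others were acquired in the mitochondrial lineage. In salivary gland, mitochondria supply ATP for ion transport and lie densely in the striated ducts.

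Libraries held 90790542 to 115729892 reads assigned to genes. Reads overlapping no annotated gene feature made up 13.8 to 15.9% of all reads in WT and 18.4 to 20.8% in Dp16, ranges that do not overlap. Of the marker lists for gland cells, all 7 tested granular duct markers had negative log2 fold changes and their summed level was 97300 to 163000 CPM (reads scaled to a common library total) in WT and 56800 to 119000 in Dp16. For acinar markers, 9 of 10 tested were negative and the sums were 8720 to 11400 and 5980 to 11500 CPM. In 1 granular duct and 2 acinar markers every Dp16 library lay below every WT library, an order found in 6.96% of all genes tested. With edgeR, 1 granular duct marker was called lower at an adjusted p below 0.05, where 0.155% of all genes were. No marker on the other lists was called. All 12 lymphoid markers were positive, 6 with no overlap between groups, an order found in 7.11% of all genes tested. Their sums were 30.8 to 39.4 CPM in WT and 48.3 to 124 CPM in Dp16. Of the remaining lists, 6 of 8 other duct, 5 of 6 macrophage and 5 of 6 endothelial markers were positive. Negative were 4 of 6 myoepithelial, 4 of 6 fibroblast, 4 of 5 adipocyte and 2 of 3 tested skeletal muscle markers. Without overlap between groups were 1 endothelial marker, higher in Dp16, and 1 myoepithelial and 1 fibroblast marker, lower. The acinar and granular duct sums show that markers of the labelled gland were present. No marker on any list was at 0 in all libraries. At this depth that shows little, as it also held for skeletal muscle markers, which summed to 1.17 to 1.71 CPM in WT. The part of these values in the results below was not tested. In bulk tissue, fewer cells of a type and less RNA per cell cannot be told apart.

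Members were spread over 17 chromosomes, with 11 on chromosome 11. One of them, Mrpl40, lies on chromosome 16, outside the duplicated segment, so all 76 have the same copy number in both groups. All except Mrpl53 passed the expression filter. Mrpl53 had 0 to 5 reads per library, and 88.0% of its exon bases are shared with another annotated gene on the same strand, Gm42688, which had 44 to 93 reads. Reads that overlap both are not assigned to either, so the level of Mrpl53 is uncertain. The 75 tested members had 167 to 3971 reads per library. Exons of 7 members, Mrpl53 among them, overlap exons of a gene on the same strand. The overlap was 37.0% of exon bases for Mrps34 (with Nme3) and 23.2% for Mrps18c (with Gm43511), where shared reads are also not assigned. Exons of 28 members overlap exons of a gene on the other strand. Named pseudogenes exist for 3 members (Mrpl23, Mrpl48 and Mrps36), and some of their reads could align equally well there.

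Promoters of mitochondrial ribosomal protein genes often carry a site for ETS factors such as GABPA (also called NRF-2), which activates nuclear genes for mitochondrial proteins, or for YY1. Gabpa lies in the duplicated segment. RefSeq promoter sequence on GRCm38.p6, from 250 bases before to 50 bases after the start, was at hand for 67 members, 25 of the small and 42 of the large subunit. The letters CCGGAAG, the core of the ETS site, were present on either strand in 25 of 67 (37.3%), 11 of the small and 14 of the large subunit. Over all 27025 promoters of the same length the share was 9.12%, and over the 11235 of tested protein-coding genes it was 16.8%. The YY1 letters AAGATGGCG were found in 8 of 67 members (11.9%), against 1.49% of all promoters and 2.9% of those of tested protein-coding genes. The 2 motifs can overlap by the letters AAG. The following stretches were chosen because their genes carry the results described below; capitals mark the motif, 10 flanking bases are given on each side where the window allows, and each is written 5′ to 3′ in the direction of the motif, with the strand of that direction on GRCm38.p6.
Mrpl52 upstream ETS, chr14:54426852-54426878, minus strand: gccgggaaaaCCGGAAGccgacatctt
Mrpl52 ETS at the start, chr14:54426901-54426927, minus strand: agcaagggaaCCGGAAGtgggcgtggc
Mrps21 ETS, chr3:95871480-95871506, plus strand: tctctgcggaCCGGAAGcggaagctac
Mrps23 ETS, chr11:88204393-88204419, minus strand: cgggctgttaCCGGAAGcggaagcggc
Mrps18a ETS, chr17:46110968-46110994, plus strand: cacccctgctCCGGAAGcggaagtgca
Mrps18b ETS, chr17:35916391-35916407, plus strand: CCGGAAGagcgactgcg
Mrps18c ETS, chr5:100798593-100798619, minus strand: gcttcccgggCCGGAAGtcacgtgacc
Mrpl37 YY1, chr4:107066822-107066850, minus strand: tgcacgggcaAAGATGGCGgcgtccaggt
Mrpl42 YY1, chr10:95501904-95501932, minus strand: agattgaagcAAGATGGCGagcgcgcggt
Mrps18a YY1, chr17:46111005-46111033, plus strand: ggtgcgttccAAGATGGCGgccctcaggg

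The search covered only 250 bases before to 50 bases after the start, so every match lies within that window. Positions are offsets in bases from the RefSeq start in the direction of the gene, negative before it. The ETS motif begins at -47 and 2 in Mrpl52, at 18 in Mrps21, 15 in Mrps23, -26 in Mrps18a, 43 in Mrps18b and -156 in Mrps18c. The YY1 letters begin at 26 in Mrpl37, 27 in Mrpl42 and 11 in Mrps18a, which has both motifs. Of 30 ETS matches in members, 21 (70.0%) lay from 50 bases before the start onward, against 57.1% of matches over all promoters. For YY1 it was 7 of 8 (87.5%), against 65.6%. The 250 bases before the start of Mrpl52, chr14:54426659-54426908 on the plus strand, show the upstream ETS match as its complement in capitals. Mrpl52, 250 bases before the start: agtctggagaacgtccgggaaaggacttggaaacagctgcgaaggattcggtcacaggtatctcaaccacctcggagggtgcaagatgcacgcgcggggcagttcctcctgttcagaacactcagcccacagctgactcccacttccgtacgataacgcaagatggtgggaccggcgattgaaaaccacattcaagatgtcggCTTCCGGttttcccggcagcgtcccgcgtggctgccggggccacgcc

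Of the other promoter letters searched, the NRF1 letters GCATGCGC were in 7 of 67 (10.4%), 6 of them large subunit genes, against 5.03% of tested protein-coding genes. The SP1 letters GGGCGG were in 33 (49.3%), fewer than the 61.8% of tested protein-coding genes. TATAAA was in 4 (5.97%), against 7.65%. These letters are a description of the window, not evidence that a factor binds.

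In Dp16 glands nearly every member had a lower estimate than in WT, by a similar small amount in both subunits, and no single member passed the test over all genes. The log2 fold change of Dp16 over WT was negative for 72 of 75 members, against 48.9% of all 19358 genes tested. Its median was -0.27, with quartiles of -0.33 and -0.19 and a range from -0.64 (Mrps18b) to 0.09 (Mrps9). Over all genes tested the median was 0.01, and over the 14442 protein-coding genes tested it was -0.02. As a percentage, the median member was 17.1% below WT.

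With edgeR's quasi-likelihood test and Benjamini-Hochberg adjustment, 0 of 75 members were called at an adjusted p below 0.05, where 0.155% of all genes were called lower and 0.47% higher. The lowest adjusted p of a member in edgeR was 0.0714, for Mrpl30. At an unadjusted p below 0.05, 33 members were lower (12 small, 21 large) and 0 higher, where 11.9% of all genes were lower and 12.7% higher. DESeq2 called 0 members higher and 8 lower at an adjusted p below 0.05, where it called 5.82% of all genes higher and 4.33% lower: Mrps18b, Mrps21, Mrpl4, Mrpl11, Mrpl30, Mrpl37, Mrpl42 and Mrpl52. Limma-voom called 0, with a lowest adjusted p of 0.053, where it called 1.28% of all genes higher and 0.77% lower. In 16 members (4 small, 12 large) every Dp16 library lay below every WT library, and in 0 every one lay above. Over all genes the shares were 6.96% and 7.11%. The plot of fold changes with their intervals shows most intervals crossing or touching 0 while the points lie to its left.

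**Figure D1:**
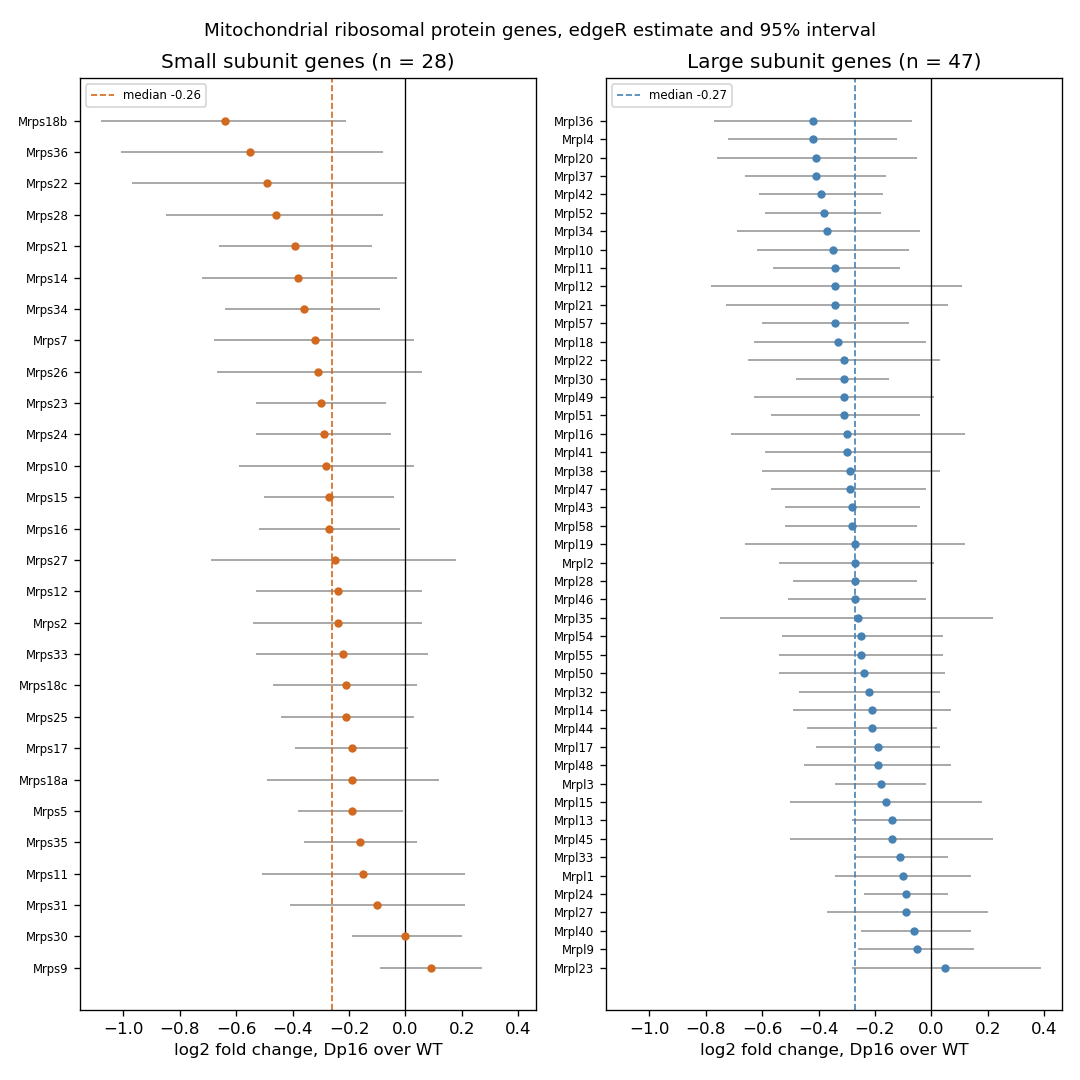
Log2 fold change of Dp16 over WT for the 75 tested members, ordered within each subunit. Points are edgeR estimates from 4 libraries per group, bars are 95% confidence intervals, the solid line is 0 and the dashed line the subunit median (-0.26 small, -0.27 large).

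The subunits could not be separated. Of the small subunit genes 26 of 28 were negative, with a median of -0.26 and an SD over genes of 0.153. Of the large subunit genes 46 of 47 were negative, with a median of -0.27 and an SD of 0.109. The difference of medians was 0.01, and without WT replicate 2 it was -0.01. Within a library, the mean of the small subunit genes differed from that of the large subunit genes, each as a log2 difference from its WT mean, by -0.01, 0.03, -0.02 and 0.00 in WT and by 0.03, 0.02, -0.06 and -0.05 in Dp16. These differences are small beside the spread between libraries of one group. Small subunit genes with a bacterial number (15) had a median of -0.24 and the other 13 a median of -0.29. Large subunit genes numbered 1 to 36 (28) had a median of -0.27, and the 19 tested with higher numbers a median of -0.28, all of them negative. Symbols do not fully follow structure, as Mrps18a and Mrps30 sit in the large subunit and Mrps36 is now known as a component of the 2-oxoglutarate dehydrogenase complex. Assigned by structure, the medians were -0.27 for 25 small and -0.27 for 49 tested large subunit genes.

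The difference was not even over the libraries. The mean log2 level of the small subunit genes, relative to the WT mean, was -0.11, 0.16, -0.12 and 0.08 in WT replicates 1 to 4 and -0.31, -0.06, -0.50 and -0.22 in Dp16. For the large subunit genes it was -0.11, 0.13, -0.11 and 0.08 in WT and -0.34, -0.08, -0.44 and -0.17 in Dp16. Dp16 replicate 2 lay inside the WT range in both subunits, and the other 3 Dp16 libraries lay below all WT libraries.

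Gene by gene the same libraries recurred. Dp16 replicate 3 was the lowest of the 8 libraries for 57 of 75 members and Dp16 replicate 1 for 10. WT replicate 2 was the highest for 46 and WT replicate 4 for 16. Dp16 replicate 3 lay below all 4 WT libraries for 69 members, replicate 1 for 64, replicate 4 for 45 and replicate 2 for 19, and replicate 2 was within the WT range for 50.

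Leaving out libraries moved the counts more than the direction. The number of members negative stayed at 72 to 74 of 75, and edgeR called 0 members in each omission. The median was -0.34 without Dp16 replicate 2 and -0.20 without Dp16 replicate 3. The 33 members at an unadjusted p below 0.05 became 51 without Dp16 replicate 2, and 11 without WT replicate 2, 17 without WT replicate 4, 15 without Dp16 replicate 1 and 14 without Dp16 replicate 3. The share of all genes lower at that level moved too. It was 11.9% with all libraries and 12.5, 7.59, 9.0, 8.35 and 8.17% in these omissions, in the same order. The plot of subunit means by library shows that the 2 subunits track each other in every library.

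**Figure D2:**
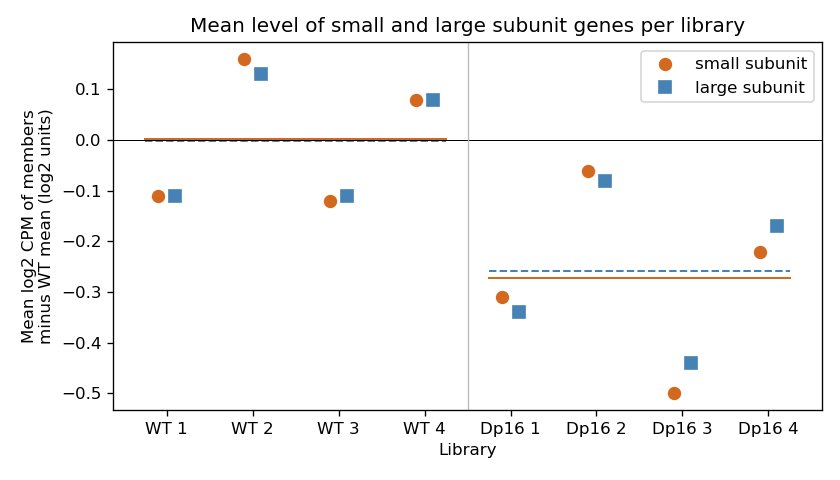
Mean log2 CPM of the small and large subunit genes in each library, minus the mean of the 4 WT libraries (log2 units); each point is 1 library, and horizontal lines are group means (solid small subunit, dashed large subunit). Dp16 replicate 3 is lowest (-0.50 small, -0.44 large) and Dp16 replicate 2 is nearest to WT.

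The scaling of libraries bears on the size. Levels were scaled by TMM, which sets a typical gene to no difference. With library size only, the median of all genes moved to 0.179, the median member was at -0.11 and 61 of 75 members were negative. On that scale 1 member, in place of 33, was lower at an unadjusted p below 0.05, where 2.22% of all genes were lower. The share of gene reads that fell on members, which likewise scales by library total alone, was 0.103% ± 0.0146 (SD, n = 4) in WT and 0.0957% ± 0.00794 in Dp16. Per library it was 0.0926, 0.117, 0.0879 and 0.113% in WT and 0.0864, 0.106, 0.0937 and 0.0969% in Dp16. These shares overlap. On the TMM scale, the summed members came to 1004, 1193, 1008 and 1129 CPM in WT and 862.2, 1023, 789.9 and 944 CPM in Dp16, and Dp16 replicate 2 alone reached into the WT range.

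**Figure D3:**
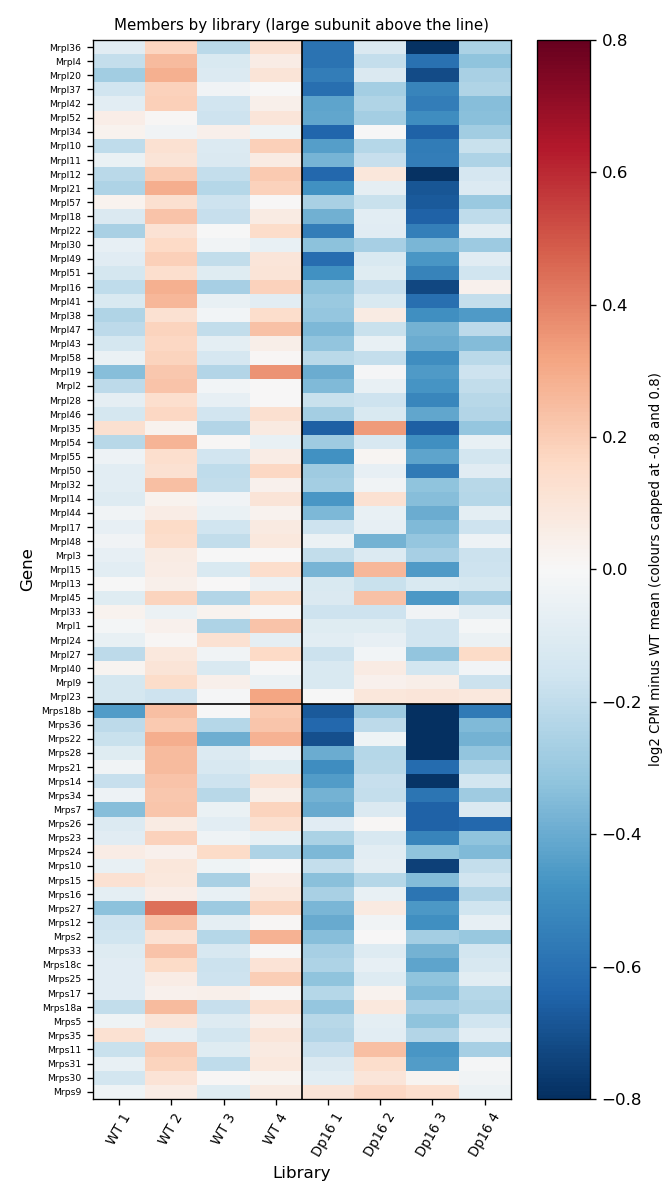
Log2 CPM of each tested member in each library minus its WT mean, with colours capped at -0.8 and 0.8 (large subunit genes above the line, small below). Dp16 replicates 1, 3 and 4 are below the WT mean for 74, 71 and 72 of 75 genes, and Dp16 replicate 2 for 57.

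Among large subunit genes the smallest p belonged to Mrpl30 (chr1:37890477-37898535, plus strand), a relative of a bacterial large subunit protein. Its level was 26.0, 30.4, 26.7 and 26.1 CPM in WT and 21.7, 22.7, 21.1 and 22.3 CPM in Dp16. All Dp16 libraries were below all WT libraries and lay close together. The means were 27.3 ± 2.09 and 22.0 ± 0.712 CPM (SD, n = 4), a log2 fold change of -0.31 (SE 0.0732, 95% interval -0.48 to -0.15, edgeR adjusted p = 0.0714, DESeq2 adjusted p = 0.01).

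Mrpl52 (chr14:54426909-54429756, plus strand), a protein with no bacterial counterpart and the gene with 2 ETS matches shown above, had 12.8, 12.4, 11 and 13.2 CPM in WT and 9.23, 10.2, 8.72 and 9.78 CPM in Dp16. The groups did not overlap, with a log2 fold change of -0.38 (SE 0.0903, edgeR adjusted p = 0.0732, DESeq2 adjusted p = 0.00671).

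Mrpl42 (chr10:95480805-95501940, minus strand), also specific to mitochondrial ribosomes and with a YY1 match after its start, had 30.2, 36.5, 28.8 and 32.9 CPM in WT and 23.9, 27.0, 21.8 and 25.3 CPM in Dp16. The groups did not overlap, though the highest Dp16 library came near the lowest WT library. Its log2 fold change was -0.39 (SE 0.097, edgeR adjusted p = 0.0786, DESeq2 adjusted p = 0.0169).

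Mrpl37 (chr4:107055874-107066868, minus strand), another of the mitochondria-specific proteins and the second gene with a YY1 match after its start, had 15.9, 20.2, 17.4 and 17.8 CPM in WT and 11.7, 14.7, 12.3 and 15 CPM in Dp16. Here too the groups did not overlap, and the log2 fold change was -0.41 (SE 0.112, edgeR adjusted p = 0.0909, DESeq2 adjusted p = 0.024). These 4 large subunit genes were the only members with an edgeR adjusted p below 0.10, a level at which 2.9% of all genes were lower and 3.85% higher.

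Mrpl11, which forms the base of the stalk where translation factors bind, had 13.4, 14.9, 12.8 and 14.5 CPM in WT and 10.7, 12.2, 9.46 and 11.7 CPM in Dp16. All Dp16 libraries were lower, by a log2 fold change of -0.34 (SE 0.101, edgeR adjusted p = 0.105, DESeq2 adjusted p = 0.0401). Mrpl12, the stalk protein itself, had 19.4, 25.9, 19.7 and 26.0 CPM in WT and 14.6, 24.0, 13.0 and 20.5 CPM in Dp16. Dp16 replicates 2 and 4 lay inside the WT range. Its log2 fold change of -0.34 was the same size as that of Mrpl11 with a wider interval, -0.78 to 0.11 (edgeR adjusted p = 0.317).

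Among small subunit genes the most negative estimate was that of Mrps18b (chr17:35910379-35916389, minus strand), one of 3 mammalian relatives of a single bacterial protein. Its level was 5.40, 8.68, 7.33 and 8.49 CPM in WT and 4.62, 6.01, 3.55 and 4.96 CPM in Dp16. WT replicate 1 lay within the Dp16 range, so the groups overlapped. The means were 7.48 ± 1.51 and 4.79 ± 1.02 CPM (SD, n = 4), a log2 fold change of -0.64 (SE 0.193, 95% interval -1.08 to -0.21, edgeR adjusted p = 0.106, DESeq2 adjusted p = 0.025).

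The other 2 relatives had smaller estimates. Mrps18a had 13.3, 18.2, 13.4 and 16.7 CPM in WT and 12.3, 16.2, 12.7 and 12.9 CPM in Dp16 (log2 fold change -0.19, SE 0.135, edgeR adjusted p = 0.41). Mrps18c had 8.81, 10.4, 8.33 and 10.1 CPM in WT and 7.91, 8.95, 7.0 and 8.57 CPM in Dp16 (log2 fold change -0.21, SE 0.112, edgeR adjusted p = 0.264). Both overlapped between groups, and all 3 promoters hold an ETS match. Whether the 3 fold changes differ from each other was not tested.

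Mrps21 (chr3:95862634-95871519, minus strand), of a bacterial family, had 21.0, 25.6, 19.6 and 20.1 CPM in WT and 15.2, 18.4, 14.0 and 18.1 CPM in Dp16. No Dp16 library reached the WT range. The log2 fold change was -0.39 (SE 0.12, edgeR adjusted p = 0.110, DESeq2 adjusted p = 0.0459). Mrps23, a mitochondria-specific protein, had 18.7, 22.6, 19.4 and 19.1 CPM in WT and 16.7, 18.2, 13.8 and 15.9 CPM in Dp16, again with no overlap (log2 fold change -0.30, SE 0.102, edgeR adjusted p = 0.128). Both are among the 25 promoters with an ETS match.

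Mrps28 had 11.6, 14.8, 11.5 and 12.1 CPM in WT and 9.43, 10.6, 6.13 and 10 CPM in Dp16. The groups did not overlap and Dp16 replicate 3 was below the other 3. The log2 fold change was -0.46 (SE 0.169, edgeR adjusted p = 0.149). Mrps34, which is needed for small subunit stability, had 9.20, 11, 8.10 and 9.79 CPM in WT and 7.27, 8.31, 6.30 and 7.76 CPM in Dp16, with 1 Dp16 library inside the WT range (log2 fold change -0.36, SE 0.123, edgeR adjusted p = 0.131).

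The 3 members without a negative estimate were Mrps9, Mrps30 and Mrpl23. Mrps9, a small subunit protein of a bacterial family, had 12.1, 12.9, 11.6 and 13.0 CPM in WT and 13.3, 13.9, 13.6 and 12 CPM in Dp16, and 3 of 4 Dp16 libraries lay above all WT libraries. The log2 fold change was 0.09 (95% interval -0.09 to 0.27, edgeR adjusted p = 0.52). Mrps30 had 9.79, 11.7, 10.9 and 11 CPM in WT and 10.2, 11.6, 11 and 10.6 CPM in Dp16. Its log2 fold change was 0.00 (95% interval -0.19 to 0.20, edgeR adjusted p = 0.987), and DESeq2 gave -0.01.

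Mrpl23, which lines the exit tunnel, had 1.77, 1.74, 1.94 and 2.43 CPM in WT and 1.95, 2.08, 2.09 and 2.07 CPM in Dp16. All Dp16 libraries lay inside the WT range. The log2 fold change was 0.05 (95% interval -0.28 to 0.39, edgeR adjusted p = 0.851), and without WT replicate 1 it was -0.01. It is one of the members with named pseudogenes.

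Mrpl39 and Mrps6, the 2 genes of the family inside the duplicated segment, lay on the other side of 0. Mrpl39 had 14.3, 16.8, 15.5 and 17.4 CPM in WT and 19.3, 24.3, 20.8 and 23.5 CPM in Dp16 (log2 fold change 0.46, SE 0.10, edgeR adjusted p = 0.0677, DESeq2 adjusted p = 0.00643). Mrps6, a small subunit protein, had 4.11, 3.43, 3.41 and 3.64 CPM in WT and 4.83, 5.80, 5.37 and 4.18 CPM in Dp16 (log2 fold change 0.47, SE 0.131, edgeR adjusted p = 0.0932, DESeq2 adjusted p = 0.0233). In both, every Dp16 library was above every WT library. None of the 75 members with 2 copies showed that order.

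**Figure D4:**
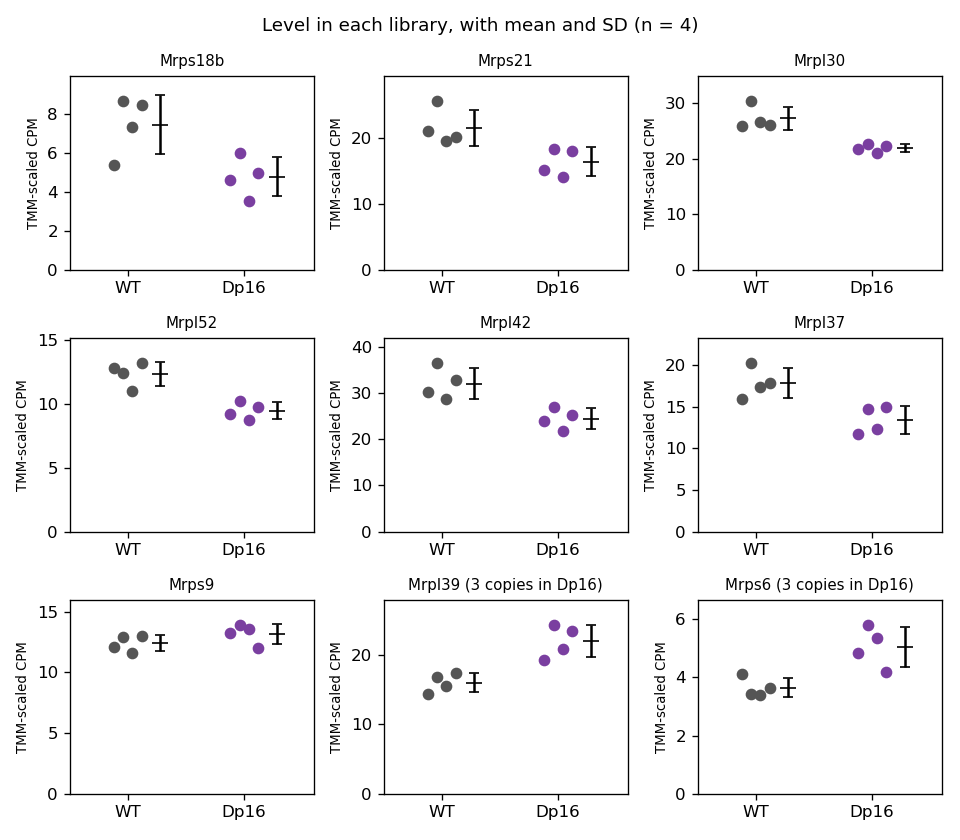
TMM-scaled CPM of 9 genes in each library (points), with mean and SD of 4 libraries per group; the axes start at 0. Mrps21, Mrpl30, Mrpl52, Mrpl42 and Mrpl37 have no overlap between groups, Mrps18b and Mrps9 overlap, and Mrpl39 and Mrps6 (3 copies in Dp16) lie higher in every Dp16 library.

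Levels between genes can be compared per length. In WT, the median small subunit gene was at 3.59 CPM per kilobase of exon and the median large subunit gene at 6.05. In the small subunit the highest per-length levels were those of Mrps21 (29.2 CPM per kilobase) and Mrps28 (15.9), and the lowest those of Mrps35 (1.47) and Mrps10 (1.51), a pair close to each other. Among tested genes of the large subunit they were Mrpl54 (21.8) and Mrpl14 (19.2) at the top and Mrpl23 (0.404) and Mrpl48 (1.55) at the bottom. Exon lengths are unions over all annotated transcripts, with a median of 2402.5 bases, so long rarely used exons lower the value. The order changed with the length used. Per length of the longest transcript, Mrps35 (2.75) and Mrps10 (2.98) lay above Mrps26 (2.44), and Mrps28 (15.9) below Mrps24 (19.3). Mrpl48 (2.95) lay above Mrpl19 (2.09), and Mrpl20 (31.0) above Mrpl54 (29.7) and Mrpl14 (28.3). Mrps21 stayed highest in the small subunit and Mrpl23 lowest among tested large subunit genes.

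The following genes lay at either end of the order by exon union and have not yet been described. Mrps35 had a log2 fold change of -0.16 (edgeR adjusted p = 0.299), Mrps10 of -0.28 (0.246), Mrpl54 of -0.25 (0.261), Mrpl14 of -0.21 (0.319) and Mrpl48 of -0.19 (0.328), all edgeR adjusted p. Of these, only Mrps10 had no overlap: 11.7, 13.0, 11.9 and 12.2 CPM in WT and 10.7, 11.6, 7.26 and 10.7 CPM in Dp16. Its lowest value was again that of Dp16 replicate 3.

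Members with and without the promoter letters differed little in median fold change. The median log2 fold change was -0.29 for the 24 tested members with an ETS match and -0.27 for the 42 without. For YY1 both medians were -0.27. At an unadjusted p below 0.05, 13 of the 24 with an ETS match were lower and 16 of the 42 without. For YY1 it was 4 of 8 and 25 of 58. Over all genes 11.9% were lower, and the differences between these groups were not tested. Among the factors themselves, Gabpa had 37.3, 35.8, 33.2 and 37.4 CPM in WT and 52.4, 60.2, 50 and 58.4 CPM in Dp16. Every Dp16 library was higher, and the gene rose with a log2 fold change of 0.62 (SE 0.0804, edgeR adjusted p = 0.0265). Yy1 had a log2 fold change of -0.05 (edgeR adjusted p = 0.75) and Nrf1 of -0.03 (edgeR adjusted p = 0.873).

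Genes that work with the mitochondrial ribosome had smaller median differences than its proteins. EdgeR called 0 genes in each list at an adjusted p below 0.05. DESeq2 called 2 of 20 synthetases (Aars2 and Ears2) and 3 of 15 genes of mitochondrial DNA expression (Polrmt, Trmt10c and Elac2) lower. It called none on the other lists, and 4.33% of all genes lower. Limma-voom called Trmt10c alone, where it called 0.77% of all genes lower. Ribosome proteins with other names were negative in 4 of 4 for the small subunit, with a median of -0.18. At an unadjusted p below 0.05, 2 of the 4 were lower, where 11.9% of all genes were. They were Chchd1 at -0.45 (edgeR adjusted p = 0.137) and Aurkaip1 at -0.26 (0.163). The large subunit protein Gadd45gip1 was at -0.30 (edgeR adjusted p = 0.402). Assembly factors were negative in 19 of 26, with a median of -0.07. At an unadjusted p below 0.05, 2 of them (7.69%) were lower, a share below the 11.9% of all genes. The 2 with the smallest p were Mterf3, of a family of mitochondrial nucleic acid binding proteins, at -0.25 (edgeR adjusted p = 0.114) and Mrm1, which methylates the large ribosomal RNA, at -0.38 (0.184).

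Translation factors were negative in 9 of 13, with a median of -0.08. At an unadjusted p below 0.05, 2 of them (15.4%) were lower, a share near the 11.9% of all genes. The 2 with the smallest p were Gfm2, which recycles ribosomes, at -0.23 (edgeR adjusted p = 0.124), and the elongation factor Tsfm at -0.34 (0.142). Mitochondrial aminoacyl-tRNA synthetases, which charge the transfer RNAs, were negative in 15 of 20, with a median of -0.20. At an unadjusted p below 0.05, 7 (35.0%) were lower and 1 higher, where 11.9% of all genes were lower and 12.7% higher. Ears2 was at -0.36 (edgeR adjusted p = 0.112, DESeq2 adjusted p = 0.0461) and Cars2 at -0.32 (edgeR adjusted p = 0.113). The higher one, named after its values were seen, was Lars2. It had 128, 117, 786 and 171 CPM in WT and 665, 638, 1120 and 2950 CPM in Dp16, with wide spread in both groups and overlap (log2 fold change 2.16, SE 0.742, edgeR adjusted p = 0.133).

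Genes for the copying, transcription and RNA processing of mitochondrial DNA were negative in 11 of 15 tested, with a median of -0.20. Of the 15, 4 (26.7%) were lower at an unadjusted p below 0.05, against 11.9% of all genes. Trmt10c, a subunit of mitochondrial RNase P, which cuts transfer RNAs out of the long mitochondrial transcripts at their 5′ ends, had 11.9, 13.9, 13.4 and 15.1 CPM in WT and 10.1, 10.5, 8.95 and 10.1 CPM in Dp16. The groups did not overlap; the log2 fold change was -0.46 (SE 0.096, edgeR adjusted p = 0.0648, DESeq2 adjusted p = 0.002, limma-voom adjusted p = 0.0451). Elac2, which cuts at the 3′ ends, was at -0.31 (SE 0.0802, edgeR adjusted p = 0.0841, DESeq2 adjusted p = 0.0154). The plot of list medians places both subunits below the lists of assembly factors, translation factors, synthetases and mitochondrial DNA expression, and the difference between lists was not tested.

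**Figure D5:**
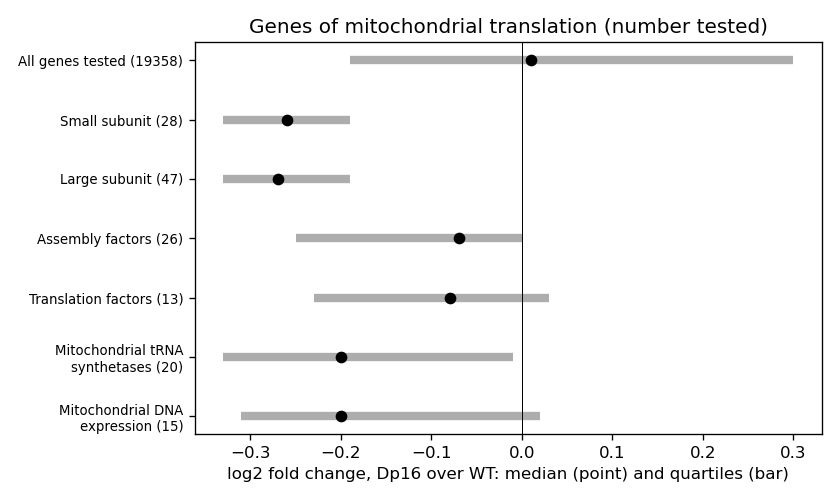
Median (point) and quartiles (bar) of the log2 fold change of Dp16 over WT for the subunits and for lists of genes of mitochondrial translation, with the number tested in brackets. The subunit medians are -0.26 and -0.27, and those of assembly factors and translation factors are -0.07 and -0.08.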

How the data were processed

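The members and gene lists were chosen with earlier results of these data known. Each of the 8 libraries came as 1 table of whole-number read counts per Ensembl gene, as deposited by the authors. Per the submitters' processing notes, FastQC, STAR, HTSeq, DESeq2 and the build GRCm38 were used. Not given in the sources used here are versions, annotation release and strand setting. Per the labels, libraries were made from total RNA with a stranded kit and ribosomal RNA depletion. The 5 rows that name no gene held 58.1 to 65.4% of reads and were left out. As a check on strand, Slirp, with at least 95% of its exon bases under exons of the other strand, kept a mean of 2148 reads, most of which HTSeq's default mode would leave out as ambiguous if strand were ignored. Slirp was a chosen example: of 575 genes with such overlap, 16 had a mean of at least 100 reads.

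Names and coordinates came from GENCODE M21, which matched 54809 of 54838 genes, and promoters from RefSeq. Genotypes were compared with edgeR 4.0.16 under R 4.3.3 (default expression filter, TMM, quasi-likelihood F-test, genotype as the only term, Benjamini-Hochberg over 19358 genes, called at an adjusted p below 0.05), and tested on simulated data first. Tests were two-sided. Log2 CPM used a prior count of 2, and CPM are TMM-scaled. Alternatives were DESeq2 1.42.0, limma 3.58.1 (voom with quality weights), other scalings and filters, a replicate block and leaving out each library. Named members are, per subunit, the 5 of smallest p in each direction and the 2 highest and 2 lowest by per-length level, plus the Mrps18 relatives and Mrpl12, and the 2 of smallest p in each partner list. Other names were added after their values were seen. Opposite-strand starts were sought within 1000 bases.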

Additional observations from a re-analysis of the deposited data

Results flagged for a closer look

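Library values of single genes were checked for a sample far from the other 3 of its group in 46 groups, of which chance marks about 1 in 20. Marked were 2. For Mrpl23 in Dp16, replicate 1 (1.95 CPM) stood below the other 3, with a gap to the nearest of 0.849 of the group's range of log2 CPM. For Mrps18a in Dp16, replicate 2 (16.2 CPM) stood above the other 3, with a gap of 0.831 of the range.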

How the results depend on the processing

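Over all genes, edgeR called 91 higher and 30 lower. The counts were 1142 and 849 with DESeq2, 247 and 149 with limma-voom, 158 and 65 with no expression filter, and 746 and 562 at an adjusted p below 0.10. With library size only, an alternative chosen after seeing the data, 307 were called higher. Leaving out 1 library gave 0 to 354 higher and 0 to 92 lower. Lower calls among small subunit genes were 0 in edgeR and 2 in DESeq2, and among large subunit genes 0 in edgeR, 6 in DESeq2 and 4 at an adjusted p below 0.10. Synthetases had 2 with DESeq2. Genes of mitochondrial DNA expression had 3 with DESeq2, 1 with limma-voom and 2 at an adjusted p below 0.10. A replicate block in the edgeR fit gave 360 genes higher and 416 lower (2.15% of those tested), and lower calls were 1 small subunit gene (Mrps22), 7 large subunit genes (Mrpl4, Mrpl10, Mrpl20, Mrpl36, Mrpl37, Mrpl42 and Mrpl52), Chchd1, 1 translation factor, 1 synthetase and 1 mitochondrial DNA expression gene. The numbers do not pair the samples by the labels, and same-numbered samples correlated in their deviations at 0.191, 0.129, 0.0777 and 0.105, with WT replicate 3 closer to Dp16 replicate 1 (0.0874) and WT replicate 4 closer to Dp16 replicate 2 (0.131). The difference of subunit medians, 0.01, became -0.01 without WT replicate 2 and was 0.00 to 0.03 in the other omissions. Subunit medians stayed negative in every alternative run. Per length of the longest transcript, the WT medians were 5.12 (small) and 8.03 (large) CPM per kilobase. Mrps30 was at -0.01 with DESeq2, 0.00 with RLE size factors, -0.03 with limma-voom, and between -0.05 and 0.04 over the omissions of 1 library, negative or 0.00 in 4 of them. Mrps35 was at 0.00 with library size only, and Mrpl23 was between -0.01 (without WT replicate 1) and 0.17 (without WT replicate 4) over the omissions. Of 578 alternative values for 34 named genes, 540 kept direction and call, 28 passed the threshold newly and 10 changed sign. The cause was not tested. Tested members had 167 to 3971 reads in a library, and the shares of counting error and of spread between libraries were not compared.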

Other observations

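Many mitochondrial ribosomal protein genes start back to back with another gene. An opposite-strand protein-coding gene started within 1000 bases of 33 of 76 members (43.4%), against 14.8% of the 14442 tested protein-coding genes. Mrpl46 and Mrps11, 1 gene of each subunit, share such a region with overlapping starts and had log2 fold changes of -0.27 and -0.15. Mrpl36 and Ndufs6, a complex I gene, overlap at their starts by 29 bases and had -0.42 and -0.42. Mrps18b and Ppp1r10, a phosphatase regulator, start 45 bases apart and had -0.64 and -0.52 (edgeR adjusted p = 0.106 and 0.0617). Mrpl30 and Mitd1, 66 bases apart, had -0.31 and 0.28. The median log2 fold change was -0.27 for 33 tested members with such a neighbour and -0.27 for the 42 without. Of the 27 tested neighbours outside the family 18 were negative, and their median was -0.08, against -0.09 for all genes with such a neighbour.

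Gene lists of 2 other large complexes, chosen after seeing the data, were counted the same way. Of 81 cytosolic ribosomal protein genes 79 were negative, with a median of -0.21, and of 37 complex I genes named Nduf 37 were negative, with a median of -0.35. EdgeR called 0 in either list at an adjusted p below 0.05. At an unadjusted p below 0.05, 37 (45.7%) and 32 (86.5%) were lower, against 11.9% of all genes and 44.0% of mitochondrial ribosomal protein genes. DESeq2 called 8 and 11 lower, where it called 4.33% of all genes lower. Limma-voom called 1 lower in each, where it called 0.77% of all genes lower. The difference between these lists and the mitochondrial ribosomal protein genes was not tested.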
